A study of Drosophila melanogaster with 2 samples.

Results

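Mitochondrial ribosomal protein genes were defined as the protein-coding genes of FlyBase annotation 6.54 whose symbol starts with mRpL or mRpS followed by a digit. The rule found 73 genes among 13945 protein-coding genes on 6 chromosome arms, 47 for the large subunit and 26 for the small subunit. The binding data came from 1 group of Drosophila melanogaster embryos that carried CG10147, a predicted zinc finger protein, fused at its C-terminus to green fluorescent protein (GFP) in a stable transgenic line. Whole embryos of both sexes, pooled and aged 0 to 24 h, were used for chromatin immunoprecipitation with an anti-GFP antibody, on chromatin sonicated to fragments of 200 to 800 bp. There were 2 libraries, named biological replicates 3 and 2 in the labels. No untagged or otherwise treated group was analysed here, so each value describes the tagged protein in a mixture of all embryonic cell types.

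Mitochondrial ribosomes translate the few proteins that the mitochondrial genome encodes, which are core subunits of the oxidative phosphorylation complexes. Their own proteins are encoded in the nucleus, made in the cytosol and imported, so nuclear promoters set the supply of both the large subunit, which joins amino acids, and the small subunit, which reads the messenger RNA. Some of these proteins have bacterial counterparts, while others were added during the evolution of mitochondria. In compact genomes many housekeeping genes start back to back, and such a divergent promoter serves a gene on each strand.

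The sequences below show intergenic stretches that carried strong peaks at mitochondrial ribosomal protein genes and that hold no annotated transcript. Each runs on the strand of the mitochondrial ribosomal protein gene, from the first base after the partner's transcription start site (TSS) to the last base before the gene's own TSS, in dm6 coordinates read from the RefSeq copy of the Release 6 assembly. The mRpS10 and Art3 stretch is chr3R:15229409-15229664 on the plus strand. The other whole stretches are on the minus strand, at chr2L:4945362-4945578 for mRpL24 and betaggt-I, chr2L:4850420-4850640 for mRpS2 and Mon1, and chr3L:14999667-14999950 for mRpL39 and Prosbeta2. For mRpS23 and mRpL20, whose promoters are longer, 101 bp centred on the summit are shown, at chr2L:13835401-13835501 and chr3L:13018113-13018213 on the minus strand. Capitals mark 4 motifs wherever they or their reverse complements occur. They are the E-box CAGCTG, the Dref site TATCGATA, the word AAAATAT and the word TTTAAAA.
mRpS10: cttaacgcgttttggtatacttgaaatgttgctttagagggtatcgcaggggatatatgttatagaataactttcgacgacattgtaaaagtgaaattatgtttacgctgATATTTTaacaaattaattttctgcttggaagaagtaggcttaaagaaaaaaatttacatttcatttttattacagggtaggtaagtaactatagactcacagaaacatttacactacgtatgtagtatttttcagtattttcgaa
mRpS23: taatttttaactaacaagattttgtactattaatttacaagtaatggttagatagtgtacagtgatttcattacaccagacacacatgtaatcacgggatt
mRpL24: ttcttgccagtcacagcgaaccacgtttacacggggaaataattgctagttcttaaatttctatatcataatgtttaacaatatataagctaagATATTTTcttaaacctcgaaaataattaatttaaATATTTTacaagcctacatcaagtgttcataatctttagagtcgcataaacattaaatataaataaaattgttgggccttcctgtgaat
mRpS2: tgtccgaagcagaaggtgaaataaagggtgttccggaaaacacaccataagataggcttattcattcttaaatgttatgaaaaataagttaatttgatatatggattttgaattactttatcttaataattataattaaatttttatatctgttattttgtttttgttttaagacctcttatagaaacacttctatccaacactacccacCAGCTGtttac
mRpL20: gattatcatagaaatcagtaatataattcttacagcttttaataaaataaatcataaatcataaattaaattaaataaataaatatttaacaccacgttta
mRpL39: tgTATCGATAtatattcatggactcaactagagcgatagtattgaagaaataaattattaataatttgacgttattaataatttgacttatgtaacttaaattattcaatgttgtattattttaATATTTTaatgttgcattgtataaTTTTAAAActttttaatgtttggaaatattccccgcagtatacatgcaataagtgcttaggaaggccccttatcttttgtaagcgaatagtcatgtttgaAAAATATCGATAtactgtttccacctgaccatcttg

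These 6 stretches were rich in A and T, with a GC content of 27.1% to 30.1% in the whole stretches, 28.7% at mRpS23 and 15.8% at mRpL20. Counted from the first base shown, the peak summit fell at position 121 for mRpS10, 74 for mRpL24, 69 for mRpS2 and 148 for mRpL39. AAAATAT was in 3 of the 4 whole stretches, with its first copy at position 111 for mRpS10, 95 for mRpL24 and 125 for mRpL39. The mRpS2 stretch held CAGCTG at position 211, close to the mRpS2 start. The mRpL39 stretch held 2 copies of TATCGATA, the first at position 3 beside the Prosbeta2 start and the other near the mRpL39 start, where it overlaps a copy of AAAATAT. Neither 101 bp window, at mRpS23 or mRpL20, held any of these 4 motifs.

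The deposited peak lists set the frame for these values. Lists for replicate 3, replicate 2 and the pooled libraries held 30000 peaks each. The list thresholded by the irreproducible discovery rate (IDR list) held 4576 peaks, the strongest 4576 of the pooled list by signal. Its signal ran between 144.6 and 4880 with a median of 228.7, in the units of the authors' peak caller, and every peak in it had the same maximal −log10 q of 4.13. Signal was therefore used for ranks within a list, and no error or depth stands behind a single peak's value. A gene was called when any of its TSSs had a peak summit no more than 500 bp away.

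In the IDR list, 27 of the 73 mitochondrial ribosomal protein genes (37.0%) had a promoter peak, against 20.3% of all protein-coding genes. In the pooled list the count was 46 genes (63.0%), against 44.8% of all protein-coding genes. Replicate 3 alone gave 53 genes (72.6%), against 46.2%, and replicate 2 alone gave 47 genes (64.4%), against 47.3%. A summit in both replicate lists was found at 41 genes (56.2%), against 39.3% of all genes. These 2 summits need not mark the same site. With replicate summits within 100 bp of each other, the count was 33 of 73 genes, against 32.2% of all genes. Among the 4576 strongest peaks of each replicate, replicate 3 marked 27 genes (37.0%) and replicate 2 marked 24 (32.9%), each against 20.6% of all genes. Only 17 genes (23.3%) were marked by the strongest peaks of both replicates, against 15.0%. The share was thus above that of all protein-coding genes in each list, by the widest margin in replicate 3. These are counts without a test, since the study has a single group.

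**Figure D1:**
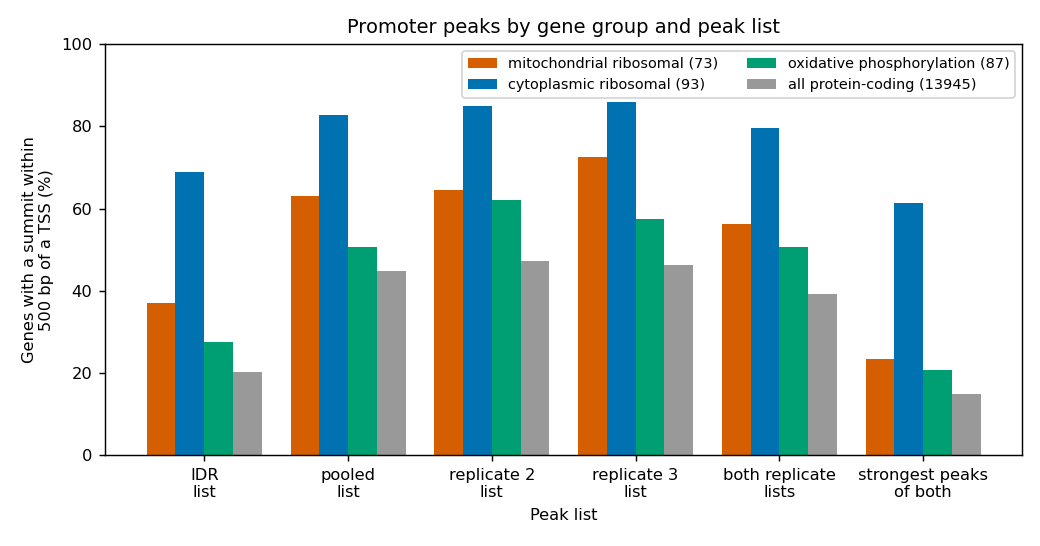
Share of genes with a peak summit within 500 bp of a TSS (y axis, percent) in 6 peak sets (x axis), for mitochondrial ribosomal, cytoplasmic ribosomal, oxidative phosphorylation and all protein-coding genes. In the IDR list the bars stand at 37.0%, 68.8%, 27.6% and 20.3%, and the order of the first, second and last of these groups is the same in every set.

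Both subunits were represented in similar shares. Of the large subunit genes 17 of 47 (36.2%) had an IDR peak, and of the small subunit genes 10 of 26 (38.5%). Genes numbered as bacterial proteins, up to L36 and S21, had a peak in 16 of 42 cases (38.1%), and those with higher numbers, most of them additions of mitochondria, in 11 of 31 (35.5%). That last grouping was made after the values had been seen.

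The strongest peak was at mRpL41 (FBgn0034001), a large subunit protein without a bacterial counterpart, on the minus strand of chromosome arm 2R. Its peak covered 15217572 to 15217934 in dm6, with a signal of 3338 in the IDR list (rank 3), 2079 in replicate 3 (rank 3) and 1371 in replicate 2 (rank 19). The summit lay -137 bp from the mRpL41 TSS. No divergent TSS lay within 500 bp upstream, and the other gene within reach of the summit was lncRNA:CR44463, a noncoding RNA gene whose TSS is 441 bp away.

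Next came mRpS10 (FBgn0038307, chr3R:15229351-15229752 for the peak), whose bacterial counterpart sits in the head of the small subunit. Signal there was 2536 in the IDR list (rank 9), 1438 in replicate 3 (rank 11) and 1125 in replicate 2 (rank 24). The summit was -136 bp from the mRpS10 TSS and -121 bp from the TSS of Art3, which encodes an arginine methyltransferase and starts 257 bp away on the other strand. The peak is thus near the middle of the first stretch shown above.

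mRpS23 (FBgn0260407, chr2L:13835286-13835632) had a signal of 1657 in the IDR list (rank 39), 1055 in replicate 3 (rank 35) and 612.0 in replicate 2 (rank 70). Here the summit was far from the member gene, at -379 bp, and -113 bp from CenG1A, a gene for a GTPase of the centaurin family. The gap of 492 bp between their starts was the widest among members with a peak. No other summit among the 27 lay as far from its mitochondrial ribosomal protein gene.

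mRpL23 (FBgn0035335, chr3L:2373414-2373785), related to a bacterial protein at the exit of the ribosomal tunnel, had a signal of 1124 in the IDR list (rank 113), 645.1 in replicate 3 (rank 141) and 474.2 in replicate 2 (rank 114). This was the single member whose nearest TSS lay upstream of the summit, which was at 83 bp inside an intron of the gene. mRpL23 has 3 annotated TSSs. Its divergent partner CG9004 starts 24 bp from the closest of them and -133 bp from the summit.

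mRpL24 (FBgn0031651, chr2L:4945333-4945659), another large subunit protein with a bacterial counterpart, had 935.3 in the IDR list (rank 173), 552.5 in replicate 3 (rank 206) and 384.5 in replicate 2 (rank 176). The summit was -144 bp from mRpL24 and -74 bp from betaggt-I, which encodes a subunit of geranylgeranyl transferase. mRpS2 (FBgn0031639, chr2L:4850416-4850708), a small subunit protein with a bacterial counterpart, had 614.7 (rank 401), 395.0 (rank 403) and 238.6 (rank 422) in the same order of lists. Its summit was -153 bp from mRpS2 and -69 bp from Mon1, a gene of endosomal trafficking. The 6 genes from mRpL41 to mRpS2 stood in the same order of signal in both replicate lists.

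**Figure D2:**
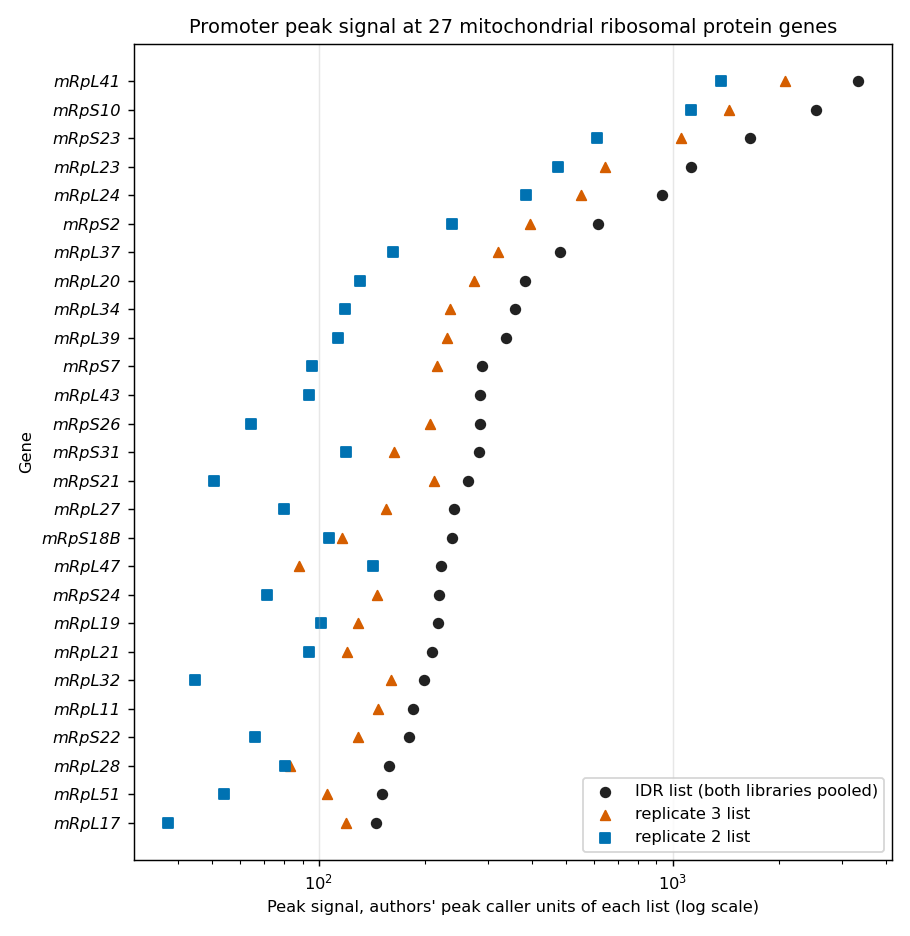
Signal of the strongest promoter peak (x axis, log scale, units of the authors' peak caller, not comparable between lists) at each of the 27 genes with an IDR peak (y axis, strongest at the top), in the IDR, replicate 3 and replicate 2 lists. mRpL41 to mRpS2 have the highest signal in all 3 lists, while below them the replicate 2 values run between 37.57 and 161.8 in an order that differs from the IDR list.

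Signal declined smoothly below these genes. mRpL37, a large subunit protein added in mitochondria, had 480.9 in the IDR list (rank 651), 321.0 in replicate 3 and 161.8 in replicate 2, with its summit -139 bp from its own start. mRpL20 had 382.8 in the IDR list, 273.7 in replicate 3 and 131.2 in replicate 2. Its summit lay -296 bp from mRpL20 and -103 bp from Icmt, a methyltransferase of prenylated proteins. mRpL34 had 357.7 in the IDR list, 234.8 in replicate 3 and 118.9 in replicate 2, beside Dg, which encodes dystroglycan. mRpL39 had 338.7, 230.5 and 113.2 in these lists, beside the proteasome gene Prosbeta2, with the summit -137 bp and -148 bp from the starts of the pair.

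A set of 4 genes stood almost level at about the middle of the members' range. mRpS7 had an IDR signal of 289.0, mRpL43 285.9, mRpS26 284.8 and mRpS31 284.4, and with no error per peak their order carries no weight. Their partners were Cdk1, the kinase of mitotic entry, CG30183, CG13698 and hzg. mRpS21 (264.5, with the chaperone gene Droj2), mRpL27 (241.1, with CG15435) and mRpS18B (237.6, with Kua) followed. The remaining 10 genes had IDR signals between 144.7 and 221.0.

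Among those 10, mRpL47 (221.0) shared its peak with CG8176 and the histone demethylase gene Kdm3, which start at the same base. mRpS24 (218.7) shared it with Apc2, a regulator of Wingless signalling, mRpL21 (209.3) with rept, an ATPase of chromatin remodelling complexes, and mRpL32 (198.6) with qless, a gene of ubiquinone side chain synthesis. mRpL11 (185.1), a protein of the factor-binding stalk base in bacteria, shared it with HtrA2, a mitochondrial protease. mRpS22 (180.4), mRpL28 (157.6), mRpL51 (150.7) and mRpL17 (144.7) shared theirs with divergent partners, among them CG5003, Uba4, which activates the ubiquitin-like protein Urm1, and Tudor-SN, a nuclease-domain protein of RNA silencing. mRpL19 (218) had no divergent partner and no other gene with a TSS within 500 bp of the summit.

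The median signal over the 27 genes was 284.4. Over all 2424 IDR peaks at a promoter it was 239.7, and over all protein-coding genes with an IDR peak, counted by gene, 257.0. Of the 27 peaks, 17 (63.0%) ranked in the stronger 2288 of the IDR list, near the 58.7% of all protein-coding genes with an IDR peak. The members' range therefore reached from rank 3 to rank 4573, nearly the whole list.

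Divergent promoters were the commonest arrangement. Of the 73 genes, 53 (72.6%) had another gene starting on the opposite strand no more than 500 bp upstream, against 29.6% of all protein-coding genes, and in all 53 the partner was protein-coding. IDR peaks were at 25 of these 53 promoters (47.2%), against 36.7% of all protein-coding genes with such a partner. Without a divergent partner, 2 of 20 genes, mRpL41 and mRpL19, had a peak, against 13.4% of all genes of that kind. Of the mitochondrial ribosomal protein genes with a peak, 92.6% were therefore divergent, against 53.5% of all protein-coding genes with a peak.

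The count was also set beside those that the shares of all genes would give. At the share of all protein-coding genes, 14.8 of 73 genes would have a peak. At the separate shares of genes with and without a divergent partner the figure was 22.1, and 27 were observed. Neither the part of the arrangement in these figures nor the remaining difference was tested.

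Within the divergent genes, the peak count varied with the gap between the TSSs. For gaps of 201 to 300 bp, 9 of 11 genes (81.8%) had a peak, against 46.6% of all divergent genes with such a gap. For gaps of 301 to 500 bp it was 10 of 20, against 38.8%. Shorter gaps gave shares close to those of all genes. They were 5 of 18 (27.8%) at 1 to 100 bp, against 30.5%, and 1 of 4 at 101 to 200 bp, against 26.0%. The median gap was 285 bp in divergent members with a peak and 153 bp in those without, while among all divergent protein-coding genes it was 260 bp and 227 bp. At the shares of all genes in the 4 gap ranges, 19.4 of the 53 genes would have a peak, and 25 did.

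**Figure D3:**
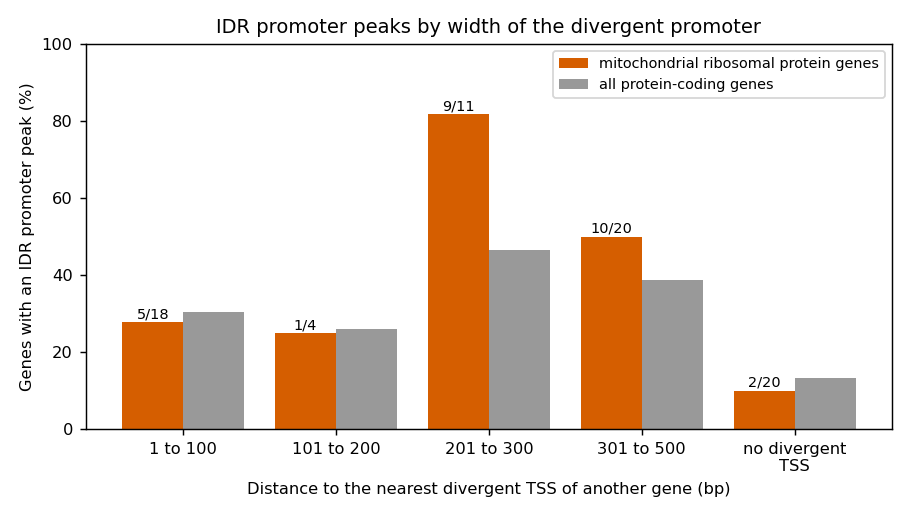
Share of genes with an IDR promoter peak (y axis, percent) by distance to the nearest divergent TSS (x axis, bp), for mitochondrial ribosomal protein genes and all protein-coding genes, with the members' counts above their bars. The members' share is highest at 201 to 300 bp, 9 of 11, and is lower than that of all genes where there is no divergent TSS, 2 of 20.

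Summits lay upstream of the gene in 26 of the 27 cases (96.3%), against 83.5% of all protein-coding genes with an IDR peak. The median distance was -144 bp, with quartiles of -176.5 and -128.5 bp and extremes of -379 bp at mRpS23 and 83 bp at mRpL23. Over all protein-coding genes with an IDR peak it was -132.5 bp. Between 50 and 300 bp upstream lay 24 of the 27 summits, against 62.9% of all genes with a peak. Peak widths ran between 99 and 402 bp, and 18 of the 27 were exactly 384 bp, so width was not used as a measure of binding.

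In 21 of the 25 divergent pairs the summit fell between the starts of both genes. It was nearer to the partner's TSS in 15 pairs and nearer to that of the mitochondrial ribosomal protein gene in 10. All 25 partners also had the summit within 500 bp of their own TSS. Where the summit lies between the starts, the definition of a partner ensures this. A summit within reach of both starts cannot be given to 1 gene of a pair. In all, 23 summits were intergenic. The other 4 lay in the 5' UTR of HtrA2 (at mRpL11), of CG8176 and Kdm3 (at mRpL47) and of Uba4 (at mRpL51), and in the mRpL23 intron. These counts of pairs and intergenic summits were not made over all genes with an IDR peak. They describe the members and cannot show a trait particular to them.

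**Figure D4:**
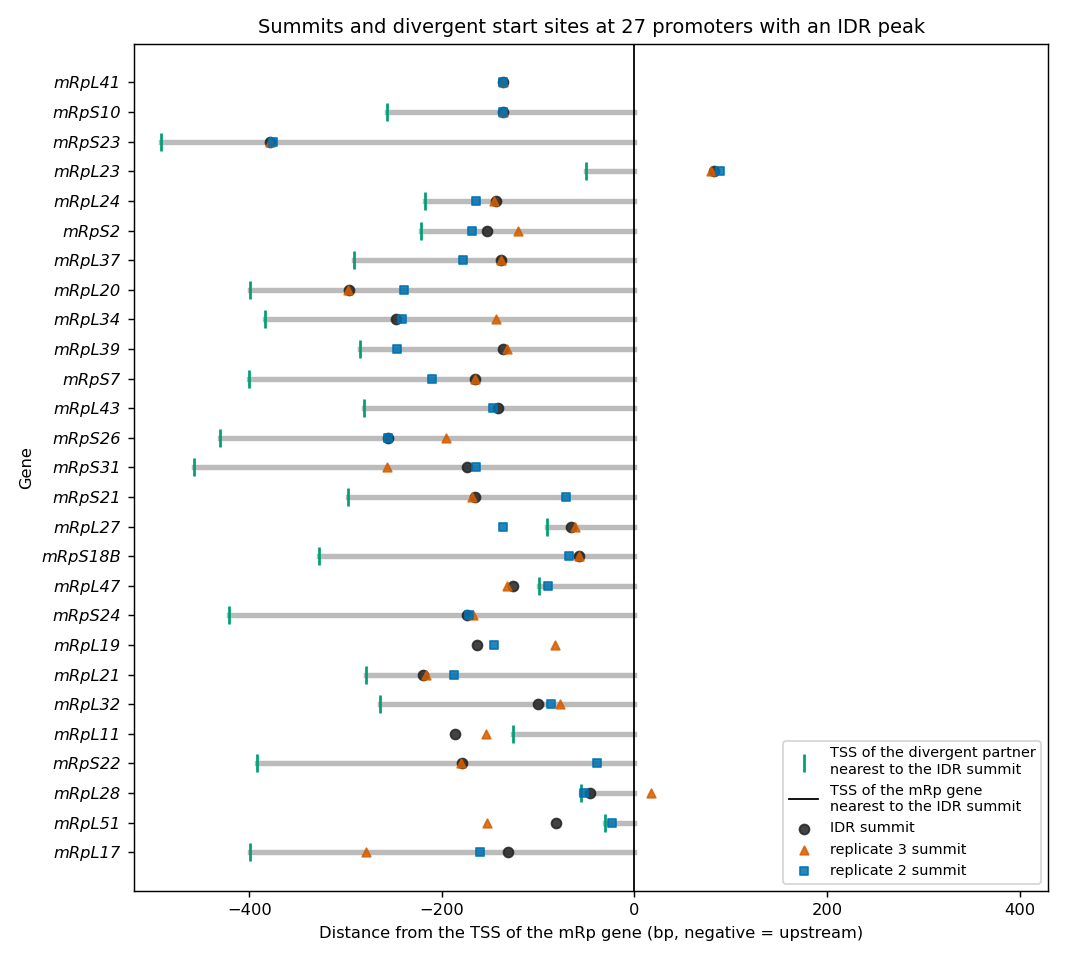
Position of the strongest promoter summit in the IDR, replicate 3 and replicate 2 lists (x axis, bp from the TSS of the mitochondrial ribosomal protein gene nearest to the IDR summit) at 27 genes (y axis), with the partner's TSS and a grey bar spanning the gap. Most IDR summits lie on the grey bar, 21 between the TSSs of a divergent pair, and the replicate summits of the strongest genes lie close together.

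The replicate lists were compared at these 27 peaks. A summit within 100 bp was present for 25 of them in replicate 3, for 24 in replicate 2 and for 22 in both, and the median distance to the nearest summit was 5 bp in replicate 3 and 17 bp in replicate 2. Of the 27 genes, 25 had a promoter summit in both lists, against 2739 of all 2836 protein-coding genes with an IDR peak. An IDR peak with a summit within 100 bp in both lists was found at 2552 of those 2836 genes. Both shares were lower in the members, a difference that was not tested. mRpL43 had none in replicate 3, and mRpL11 none in replicate 2, although mRpL11 had a signal of 146.7 (rank 2228) in replicate 3. Across the 25 genes the replicate signals had a Spearman rho of 0.705, given as a description over promoters from the same pair of libraries.

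Rank was better in replicate 3 for 17 of the 25 genes and in replicate 2 for 8. Each rank is that of the strongest promoter summit in its list, which need not be the same site. This split was not counted over all genes. The gap in rank was wide at mRpS21, which ranked 1278 in replicate 3 and 7211 in replicate 2, and at mRpL32, which ranked 1968 and 8663 in these lists. It ran the other way at mRpL47, ranked 4742 in replicate 3 and 1148 in replicate 2. Of the 27 genes with an IDR peak, 17 (63.0%) were marked by the strongest peaks of both replicates, against 71.3% of all protein-coding genes with an IDR peak.

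Repeats marked another difference. The summit base was soft-masked, that is, annotated as repetitive or simple sequence in the reference, at 13 of the 27 peaks (48.1%), including mRpL41, mRpS10, mRpL37, mRpL20 and mRpL39, against 606 of the 2424 IDR promoter peaks. With such summits left out, 14 of 73 genes (19.2%) had a peak, against 15.2% of all protein-coding genes. The part of repeats in these peaks was not tested.

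Chromosome arms differed in their counts. On X none of 11 genes had an IDR peak, against 19.6% of all protein-coding genes there. On the other arms 27 of 62 (43.5%) did, against 20.5%. By arm, 8 of 12 genes on 2L (66.7%) had a peak, against 20.1% of all genes there, and 7 of 17 on 3L (41.2%), against 21.7%. On 3R it was 9 of 21 (42.9%), against 21.2%. On 2R it was 3 of 12, against 19.0%, which is near the share of all genes. Of the X genes, 7 of 11 had a divergent partner, a class in which 31.8% of all X genes had a peak. Weaker peaks were present at some of them. The pooled list marked 3 of the 11 (27.3%), against 50.4% of all X genes, and replicate 2 marked 4 (36.4%), against 52.6%. Replicate 3 marked 6 (54.5%), against 50.6%.

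Below the IDR threshold, 19 further genes of the 73 had a summit in the pooled list. Over all genes of each kind this is a share similar to that of protein-coding genes, 3417 of 13945. Only genes without an IDR peak can fall in this class, however. Among those it was 19 of 46 members, a larger share than the 3417 of 11109 protein-coding genes. That difference was not tested. The signals of the 19 genes ran between 42.55 and 133.4 (median 99.66) and their ranks between 5162 and 22511. The 5 strongest were mRpS17 (133.4), mRpS18C (129.8), mRpL18 (128.9), mRpL53 (124.5) and mRpL13 (120.8). They sit just outside the threshold, whereas mRpL17, with 144.7, is the lowest inside it. At mRpS17 the replicates disagreed, with a signal of 133.6 (rank 2592) in replicate 3 and rank 11744 in replicate 2. At mRpL13 replicate 3 had 59.59 (rank 8392) and replicate 2 had 90.67 (rank 2685).

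Another 13 genes of the 73 had a promoter summit in a single replicate list and none in the pooled list. Of these, 8 were in replicate 3 and 5 in replicate 2. Among all 13945 protein-coding genes, 1382 had a summit in at least 1 replicate list and none in the pooled list, a smaller share. With or without a pooled summit, 12 members were marked in replicate 3 alone and 6 in replicate 2 alone. Over all protein-coding genes these counts were 957 and 1112, the opposite lean. These differences were not tested. Of the 13 genes without a pooled summit, the strongest in replicate 3 was mRpL44, with a signal of 134.9 (rank 2546). The nearest replicate 2 summit was 3105 bp away. In replicate 2 it was mRpL16 on X, with 127.9 (rank 1404) and the nearest replicate 3 summit 9085 bp away. Neither promoter had a summit in the list of the other library.

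No list had a summit near 14 genes, namely mRpL3, mRpL12, mRpL38, mRpL40, mRpL45, mRpL46, mRpL54, mRpS9, mRpS14, mRpS18A, mRpS28, mRpS30, mRpS34 and mRpS35. These were 14 of 73 members, against 6310 of all 13945 protein-coding genes. The lists are limited in length, so a weaker site is not excluded at these genes. The mRpS18 paralogues, 3 genes that each encode a version of the same bacterial protein, fell into different classes. mRpS18B had an IDR peak with a signal of 237.6, mRpS18C was outside the IDR list, with a signal of 129.8 in the pooled list, 86.98 in replicate 3 and 48.21 in replicate 2, and mRpS18A had no summit in any list.

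Promoter sequence was searched for 8 motifs on both strands, in the window from 250 bp before to 50 bp after the TSS. CAGCTG, a form of the E-box, was in 16 of 27 members with a peak (59.3%) and 24 of 46 without (52.2%), against 17.9% of 13944 protein-coding promoters and 24.4% of divergent ones. It was thus common in the family whether or not a peak was called. Cytoplasmic ribosomal protein promoters held it in 9.68% of cases and oxidative phosphorylation promoters in 26.4%. The 45 copies in 40 members clustered at the start itself, with a median position of 2 bp from the TSS, and 22 of them began upstream.

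TATCGATA, the site of the Dref factor, was in 7 members with a peak (25.9%) and 8 without (17.4%), against 8.94% of all promoters and 16.1% of divergent ones. Its 16 copies had a median start of -9.5 bp, and 13 began within 100 bp upstream. The shorter word CGATA, known for BEAF-32 and contained in TATCGATA, was in 44.4% of members with a peak, 65.2% of those without and 46.9% of all promoters. Both CAGCTG and TATCGATA were in 4 of 27 members with a peak and 1 of 46 without. At least 1 of these motifs was in 19 of 27 with a peak and 31 of 46 without, which are similar shares. Their joint presence was not counted over all promoters, and the difference was not tested.

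GGTCACAC, the core of the promoter element motif 1, was in 7.41% of members with a peak, 13.0% of those without and 7.54% of all promoters. TATAAA, the TATA box, was in 48.1%, 45.7% and 45.3% in the same order. GAGAG, the word of the GAGA factor, was in 14.8% of members with a peak and 17.4% of those without, against 30.2% of all promoters. AAAATAT was in 40.7% of members with a peak, 32.6% of those without and 29.4% of all promoters, and TTTAAAA in 48.1% of members with a peak and 39.1% of those without, with 3771 of all 13944 promoters holding it. GC content averaged 33.8% ± 3.47 (SD, n = 27) in members with a peak, 37.1% ± 7.04 (SD, n = 46) in those without and 39.3% ± 7.80 (SD, n = 13944) in all promoters.

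**Figure D5:**
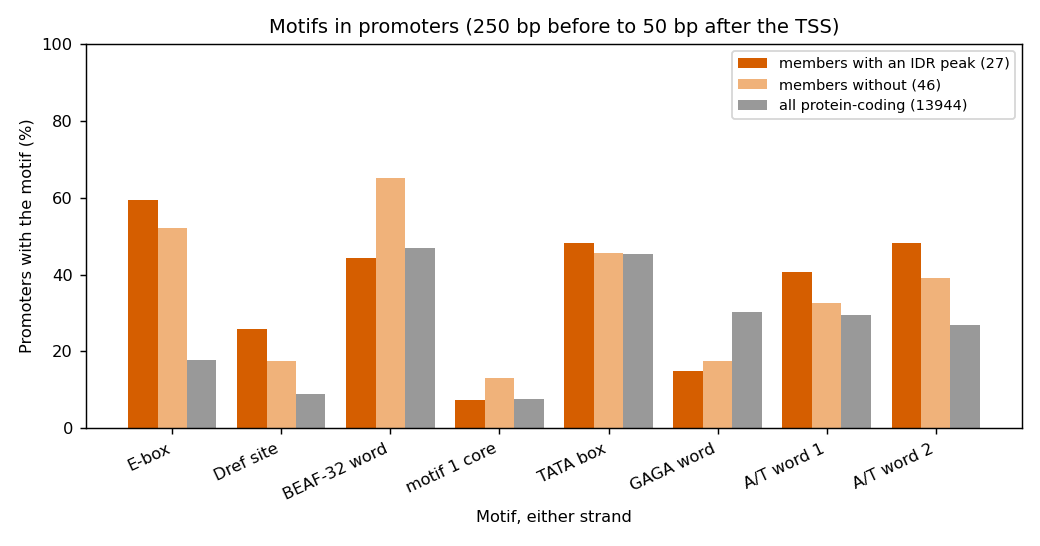
Share of promoters with each of 8 motifs on either strand (y axis, percent; x axis, motif) in members with an IDR peak, members without and all protein-coding genes; A/T word 1 is AAAATAT and A/T word 2 is TTTAAAA. The E-box CAGCTG stands at 59.3%, 52.2% and 17.9%, and the GAGA word is lower in both classes of members than in all promoters.

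Most summits lie upstream of the start, so windows around them cover other sequence. In 200 bp windows centred on the summit, CAGCTG was in 6 of 27 (22.2%), against 11.1% of the 2424 IDR promoter peaks, and TATCGATA in 7.41%, against 7.38%. TTTAAAA was in 44.4% of member windows, against 25.4%, and AAAATAT in 37.0%, against 29.7%. GAGAG was in 3.70%, against 19.4%. CGATA and TATAAA were each in 33.3%, against 36.9% and 38.0%. GC content was 31.6% ± 5.16 (SD, n = 27) in member windows and 35.5% ± 8.01 (SD, n = 2424) in all of them, and the shares of the A and T words were not adjusted for it.

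Other genes of mitochondrial gene expression were examined from a list of 44, with elongation and termination factors, aminoacyl-tRNA synthetases, transcription factors and RNA processing enzymes. Of these, 9 (20.5%) had an IDR peak and 22 a pooled peak, against 20.3% and 44.8% of all protein-coding genes. PNPase, the mitochondrial exoribonuclease, had a signal of 2095 (rank 20) with its summit 69 bp inside the gene. SLIRP2 and SLIRP1, related to the RNA-binding partner of LRPPRC in mammals, had 1455 (rank 52) and 643.3 (rank 369). RNaseZ, which trims the 3' end of transfer RNAs, had 331.5, mTerf5, of the transcription termination factor family, 302.5, and the elongation factor gene mEFG1 213.1. The synthetase genes ProRS-m, ArgRS-m and LeuRS-m had 192.3, 184.2 and 173.8. The mitochondrial RNA polymerase gene PolrMT had no promoter summit in any list, and TFAM, for the mitochondrial DNA packaging factor, had one in the pooled list with a signal of 108.4. tko and bonsai, which encode small subunit proteins under other names, had no pooled summit, although tko had one in replicate 2 alone, with a signal of 113.5 (rank 1758).

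Peak position and promoter arrangement were also set beside those of other protein synthesis and energy groups. The median summit of the mitochondrial ribosomal genes was at -144 bp, against -132.5 bp for all protein-coding genes and -113 bp for the 9 other genes of mitochondrial gene expression with an IDR peak. It was -28 bp for the 64 of 93 cytoplasmic ribosomal protein genes with an IDR peak (68.8%) and -57 bp for the 24 of 87 oxidative phosphorylation genes (27.6%). Median signal was 284.4 in the mitochondrial ribosomal genes, against 290.7 in the cytoplasmic ribosomal and 207.4 in the oxidative phosphorylation genes. Divergent promoters made up 72.6% of the mitochondrial ribosomal genes, against 59.1% of the other genes of mitochondrial gene expression, 41.9% of cytoplasmic ribosomal and 44.8% of oxidative phosphorylation genes. Among divergent genes alone, the shares with a peak were 47.2% of mitochondrial ribosomal, 76.9% of cytoplasmic ribosomal and 43.6% of oxidative phosphorylation genes. These differences between groups were not tested.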

How the data were processed

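Chromatin immunoprecipitation peaks of CG10147-GFP from whole embryos were analysed in 2 libraries of 1 group. Per the labels' file lists, the authors called peaks on each replicate and on both pooled, each with a control not analysed here, on dm6, and thresholded the pooled peaks by IDR. The peak caller, aligner and read filters are not given in the sources used here. Each deposited peak carries a signal value in the caller's units and, per the file format, a −log10 q value. The lists hold no read depth, so the depth is unknown and no interval was made.

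Genes and TSSs came from the Ensembl 115 copy of FlyBase 6.54, and sequence from the RefSeq copy of Release 6. Python 3.11.15, pandas 2.3.3, numpy 2.4.6, scipy 1.17.1 and matplotlib 3.10.9 were used. A gene took its strongest summit within 500 bp of a TSS. A divergent partner was another gene that starts on the opposite strand at most 500 bp upstream. Motif windows used the Ensembl canonical TSS, which 1 gene lacked. Of the listed genes of mitochondrial gene expression, mEFG2 was not matched. The assignment of peaks to genes was tested on simulated positions. There is no contrast between conditions, so counts are given beside those of all protein-coding genes, without p-values. The members, gene lists and motifs were chosen with earlier results of these data known. Named were all members with an IDR peak, most of their partners, the 5 strongest members below the threshold, members seen in 1 replicate, and listed mitochondrial genes with an IDR peak. The partner of mRpL37 is not reported here. Other members, and values of PolrMT, TFAM, tko and bonsai, were named after their values were seen.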

Additional observations from a re-analysis of the deposited data

How the results depend on the processing

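Across 54 alternatives for the counts, medians and motifs, 29 values stayed close to the reported value and 25 moved. For counts, close meant within 1.5 times. For medians it meant within the standard deviation of the 2 single-replicate medians, 33.2 for signal and 0.707 bp for position. By that narrow cutoff 6 of the 7 position alternatives moved. Only the position alternatives could change sign, and none did. The 27 genes with an IDR peak became 17 in the stronger 2288 peaks, 46 in the pooled list and 14 outside soft-masked repeats. With each replicate left out in turn, taking the strongest 4576 peaks of the other, the count ran between 24 and 27. The median signal of 284.4 became 241.1 with a TSS window of 200 bp and 357.7 in the stronger 2288 peaks, and 116.0 to 163.0 in single replicates, whose units differ. The median summit position of -144 bp became -137 bp with a TSS window of 200 bp, -148.5 bp with 1000 bp, -141.5 bp for peaks in both replicates and -153 bp from canonical TSSs, and -153 to -152 bp in single replicates. The 25 of 53 divergent genes with a peak became 16 of 53 in the stronger 2288 peaks, against 23.6% of all divergent genes. A gap of 300 bp left 33 divergent members, 15 of them with a peak (45.5%, against 35.7% of all such genes). Replicate 2 alone gave 21 (39.6%, against 35.6%) and replicate 3 alone gave 25 (47.2%, against 38.4%). The 41 genes in both replicate lists became 17 with the strongest peaks of each. Among the 27 genes with a peak, summit windows of 200 bp held TATCGATA in 2, GGTCACAC in 1, CAGCTG in 6 and GAGAG in 1. Windows of 500 bp on each side of the TSS held CGATA in 22 (81.5%, against 78.8% of all promoters), GGTCACAC in 7 (25.9%, against 10.6%), TATAAA in 21 (77.8%, against 74.1%), GAGAG in 11 (40.7%, against 67.2%) and AAAATAT in 19 (70.4%, against 57.2%). Smaller windows, fewer peaks and tighter rules lower counts by construction; other causes were not tested. On the IDR list, 5 genes were called in all 8 settings: mRpL23, mRpL24, mRpS2, mRpS7 and mRpS21. These are not the strongest peaks. mRpL41 (rank 3) and mRpS10 (rank 9) dropped out where soft-masked summits were left out. mRpS23 (rank 39), with its summit at -379 bp, dropped out with the TSS window of 200 bp. No share of all genes was made for this rule. No paired analysis was possible because there is 1 group. Limits are the pair of libraries, the unknown depth, the absence of untagged embryos from the lists used, and divergent promoters, where a peak cannot be given to 1 gene.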
